A study of Mus musculus with 6 samples.

Results

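Unedited NIH/3T3 cells, a fibroblast line derived from embryos of Swiss albino mice, served as the control of a series on Mki67 knockout clones, and the transcriptome described here is that of these wild-type (WT) cells alone. Its members are the libraries that the titles name as WT, which are 2 of the 6 libraries of the series; the other 4 come from 2 knockout clones. Cells of all groups were grown in DMEM with 10% fetal bovine serum, and the WT cells carry no further allele or agent per the labels. Total RNA was depleted of ribosomal RNA and sequenced with a strand-specific kit. The protocol text that goes with the samples names 4T1, a mammary tumour line, whereas titles, sources and tissue fields name NIH/3T3. The labels do not say whether the WT libraries came from separate cultures, so the spread between them may be technical, and a line in culture is 1 model of a fibroblast without the tissue around it.

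Fibroblasts build and remodel connective tissue. They secrete collagens, fibronectin-binding glycoproteins and proteoglycans, read that matrix through integrins and other surface receptors, and pull on it with actin and non-muscle myosin. Most of these proteins belong to families of paralogues, genes that arose by duplication and encode related proteins, and a cell type is marked as much by which paralogue it transcribes as by how much. NIH/3T3 is immortal, divides for as long as serum growth factors are present, stops at confluence, and is widely used to study growth factor signalling and transformation.

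Gene counts summed to 3873249 in replicate 1 and 11377172 in replicate 2. Levels are given as counts scaled to the library's total of gene counts (CPM), or, wherever genes are set beside each other, as CPM per kilobase of merged exon (RPKM). In each pair of values the first belongs to replicate 1 and the other to replicate 2. A gene was counted as detected with at least 3 counts in both libraries, and as expressed at 1 RPKM or more in both. A gene at 0 counts in both libraries may still be present at up to 0.775 CPM in replicate 1 and 0.264 CPM in replicate 2, the levels of 3 counts, or 0.197 CPM over both; such limits cover counting error only. Mki67, the knockout target, stood at 46.7 and 53.8 CPM in the WT libraries and at 4.27 to 7.82 CPM in the 4 knockout libraries, so the WT labels go with its level.

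The highest messenger RNAs of the line encoded the cytoskeleton, protein synthesis and secreted or calcium-binding proteins. Actb, cytoplasmic beta-actin (ENSMUSG00000029580, chromosome 5, 142903115 to 142906754 in GRCm38, minus strand), had the highest mean level on both scales. Its level was 17851 and 13402 CPM (mean 15627 ± 3146 CPM, SD, n = 2) and 6663 and 5003 RPKM. Eef2, the elongation factor that moves the ribosome along the message (ENSMUSG00000034994, chromosome 10, 81176631 to 81182498, plus strand), came next by CPM at 11421 and 11242 CPM, and its values in the libraries were close to each other. Vim, the intermediate filament protein of mesenchymal cells (chromosome 2, 13573927 to 13582826, plus strand), stood at 5072 and 5261 CPM. Lgals1, a secreted galectin that binds cell-surface glycans (chromosome 15, 78926725 to 78930465, plus strand), reached 5677 and 4643 CPM, and per length it stood at 6287 and 5142 RPKM, below Actb in replicate 1 and above it in replicate 2.

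The other nuclear genes among the 12 highest by CPM were Rack1, a scaffold on the small ribosomal subunit, Atp5b of the mitochondrial ATP synthase, Tubb5 of microtubules, the elongation factor Eef1a1, the actin crosslinker Flna, the chaperone Hsp90ab1 and the calcium-binding S100a6. They lay between 3233 CPM for S100a6 and 5142 CPM for Rack1 over both libraries. The mitochondrial gene mt-Co1 of cytochrome oxidase completed the 12, at 4802 and 6160.2 CPM. Ranking per length brought in short messages: Rplp1, a stalk protein of the large ribosomal subunit, at 4311 and 3638 RPKM, S100a4, a metastasis-associated calcium-binding protein and fibroblast marker, at 1986 and 1757 RPKM, and the histone gene Hist2h2bb at 2873 and 2311 RPKM. Of the 50-base stretches of the Rplp1 transcripts, 40% occur in no other gene, and for Hist2h2bb none are unique, so both levels are uncertain. The same share was 59.6% for Eef1a1 and 48.9% for mt-Co1. The plot of the highest genes shows that Actb lay above every other protein-coding gene by CPM in both libraries.

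**Figure D1:**
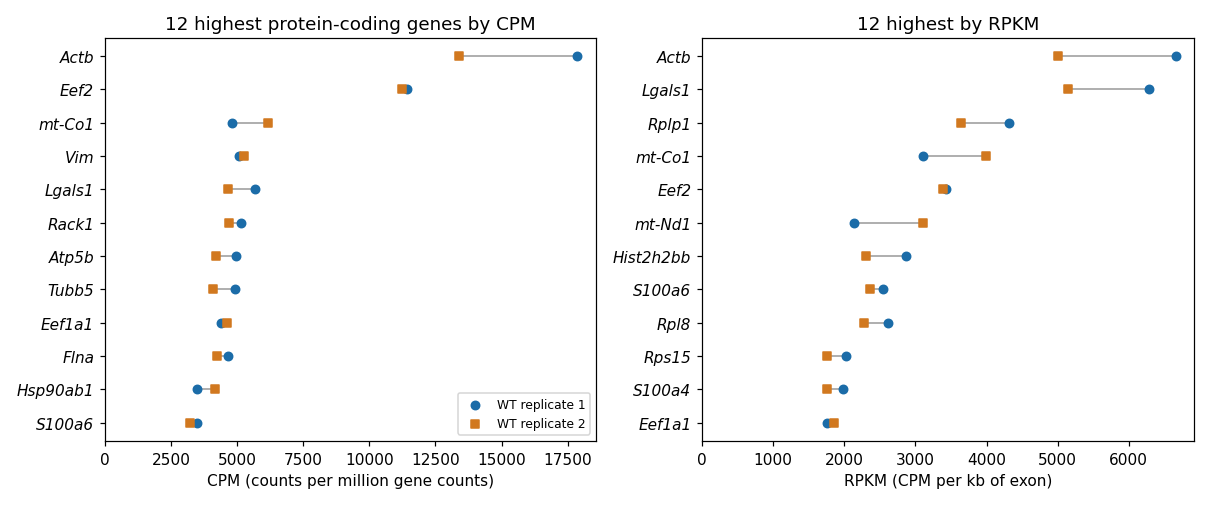
Levels of the 12 protein-coding genes with the highest mean CPM (left, counts scaled to the library total) and the 12 with the highest mean RPKM (right, CPM per kilobase of exon); circles are WT replicate 1 and squares WT replicate 2. Actb has the highest mean in both panels, at 17851 and 13402 CPM, and Lgals1 lies beside it only when levels are taken per length.

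Among nuclear protein-coding genes, the counts were not held by a few genes, though the 1000 highest took most of them. The 10 highest nuclear protein-coding genes took 8.42% and 7.64% of the nuclear protein-coding counts, the 100 highest 23.0% and 21.4%, and the 1000 highest 56.0% and 53.3%. Of 21906 protein-coding genes, 10946 (49.97%) were detected and 8421 (38.4%) had 0 counts in both libraries. At 1 RPKM or more stood 9025 genes (41.2%), with a median of 8.27 RPKM. By mean level, 5284 genes lay between 1 and 10 RPKM, 3588 between 10 and 100, 402 between 100 and 1000, and 22 at 1000 or more. The 22 genes of the top class alone took 8.71% and 8.17% of all gene counts.

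Because ribosomal RNA was depleted but polyadenylated RNA was not selected, non-coding RNAs of the nucleus and mitochondrion were also counted. Rn7sk, the small nuclear RNA that sequesters an elongation factor of RNA polymerase II, exceeded every messenger RNA at 43854 and 43360.2 CPM. The mitochondrial large ribosomal RNA mt-Rnr2 stood at 33969.7 and 52178 CPM, and it was higher in replicate 2. The Y RNAs Rny1 and Rny3, which bind the Ro protein, reached 9486 and 7874 CPM and 5834 and 4572 CPM. Malat1, a nuclear long non-coding RNA of splicing speckles, stood at 1477 and 1982 CPM. The mitochondrial chromosome as a whole took 5.92% of gene counts in replicate 1 and 8.97% in replicate 2. Its ribosomal RNAs alone took 5.00% and 7.68%, and its protein-coding genes 0.898% and 1.27%. Because ribosomal RNA was depleted, these shares and the level of mt-Rnr2 describe the libraries and cannot be read as levels in the cell. Only 7 of the 13 mitochondrial protein-coding genes were detected. Reads with several hits were not counted, so the mitochondrial share may also be too low. Protein-coding genes took 81.4% and 80.5%.

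The promoters of the most abundant genes are not of 1 kind. CpG dinucleotides, which are depleted from most of the mouse genome but retained in CpG islands at many broadly active promoters, were counted in the RefSeq promoter window of 250 bases before to 50 after the start (GRCm38.p6; the first start of each gene). The window was matched for 16503 protein-coding genes. Eef2 and S100a6 are shown because they are both among the 12 highest genes and stand at opposite ends in CpG count, with 34 (chr10:81176381-81176680, plus strand) and 6 (chr3:90612644-90612943, plus strand). Capitals mark each CG, a pair that reads the same on both strands.
Eef2: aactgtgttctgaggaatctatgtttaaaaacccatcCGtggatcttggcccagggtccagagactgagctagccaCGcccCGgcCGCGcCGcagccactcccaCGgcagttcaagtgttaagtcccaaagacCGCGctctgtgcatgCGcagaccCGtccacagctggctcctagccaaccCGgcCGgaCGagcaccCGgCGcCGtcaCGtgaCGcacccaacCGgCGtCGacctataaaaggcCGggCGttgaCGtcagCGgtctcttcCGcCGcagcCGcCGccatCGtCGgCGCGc
S100a6: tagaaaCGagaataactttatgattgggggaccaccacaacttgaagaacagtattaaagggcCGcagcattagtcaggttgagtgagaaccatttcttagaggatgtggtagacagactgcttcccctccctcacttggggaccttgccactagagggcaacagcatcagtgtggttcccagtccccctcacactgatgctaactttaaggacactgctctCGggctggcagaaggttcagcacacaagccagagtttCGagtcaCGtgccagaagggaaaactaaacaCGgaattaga

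Across all levels, median CpG counts were lowest for genes that were not seen. The median was 3 for the 6039 genes at 0 counts, 11 for those seen below 1 RPKM, 22 for those between 1 and 10 RPKM, 22 between 10 and 100 RPKM and 19 at 100 RPKM or more, beside 14 for all 16503. Windows with at least 10 CpG made up 24.2% of the genes at 0 counts and 91.6% of those between 10 and 100 RPKM. The plot of promoter CpG by level shows that the quartiles of the genes at 0 counts and of those above 1 RPKM did not meet. A TATAA box (TATAA on either strand, between 40 and 15 bases before the start) had a different profile. It was present in 9.39% of windows of genes at 0 counts, in 1.61% and 1.82% of those between 1 and 10 and between 10 and 100 RPKM, and in 6.04% of those at 100 RPKM or more, against 5.11% of all windows. Vim was the highest of the matched genes with one, and its window (chr2:13574061-13574360, plus strand) is shown with the TATAA in capitals, 32 bases before the start. The same letters in the Eef2 window above lie nearer its start than the stretch searched.
Vim: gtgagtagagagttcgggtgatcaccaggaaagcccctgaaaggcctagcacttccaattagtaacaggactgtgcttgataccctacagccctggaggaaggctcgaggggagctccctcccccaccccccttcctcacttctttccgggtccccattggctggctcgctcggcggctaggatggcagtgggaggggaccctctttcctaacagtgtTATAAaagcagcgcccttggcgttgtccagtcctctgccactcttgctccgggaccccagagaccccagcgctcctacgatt

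**Figure D2:**
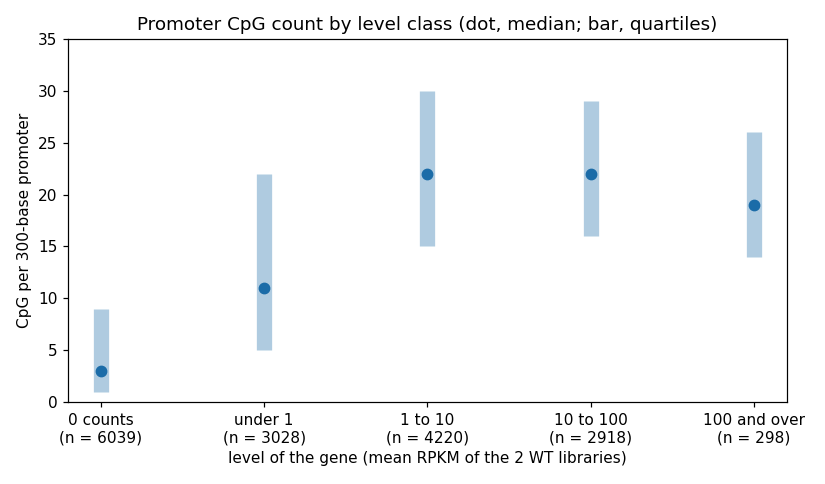
CpG count of the 300-base RefSeq promoter window (y axis) by the mean level of the gene in the WT libraries (x axis, with the number of genes); dots are medians and bars run from the lower to the upper quartile. The median is 3 at 0 counts and 22 between 1 and 100 RPKM, and it is 19 in the highest class.

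Marker lists for 12 cell types were then read against the label. The fibroblast list had 9 of 12 markers expressed and a summed level of 3380 and 3329 RPKM, the highest of the 12 lists; S100a4 and Vim made up most of it. Thy1, a surface glycoprotein of fibroblasts and T cells, stood at 68.2 and 69.96 RPKM, and the collagen genes Col1a1, Col1a2 and Col3a1 were all expressed. Lum, a collagen-binding proteoglycan, and Fap, a fibroblast protease, were at 0 counts, and Dcn, another proteoglycan, stood at 0.619 and 1.22 RPKM. None of 12 epithelial markers was expressed, beside the same 41.2%. Epcam, Krt5, Krt19, Cldn3, Cldn7 and Esrp1 were at 0 counts and the list summed to 0.392 and 0.673 RPKM. These values go with the fibroblast label of the titles, and the epithelial levels near 0 go against the 4T1 name in the protocol.

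Other lists were low, with a few single genes standing out. Their counts of expressed markers are set beside the 41.2% of all protein-coding genes that were expressed. The neuronal, adipocyte, erythroid and pluripotent lists had no expressed marker, with summed levels of at most 0.495 RPKM. The smooth muscle list summed to 487 and 392 RPKM, nearly all of it from Acta2, smooth muscle actin, at 442 and 357 RPKM. Tagln and Smtn, actin-binding proteins of contractile cells, stood at 11.7 and 8.14 RPKM and 14.9 and 12.02 RPKM (41.7% of the 50-base stretches of Tagln are unique, so its level is uncertain), whereas Myh11, the smooth muscle myosin that defines the mature cell, was at 0 counts and the calponin gene Cnn1 at 0.377 and 0.225 RPKM. The haematopoietic list had Cd14, a lipopolysaccharide co-receptor, at 19.7 and 17.9 RPKM and Cd68, a lysosomal glycoprotein, at 14.6 and 11.96 RPKM. Adgre1, Itgam, Tyrobp, Laptm5 and Cd3e were at 0 counts and Ptprc, the pan-leukocyte phosphatase, had 1 and 4 counts. Only 33.7% of the 50-base stretches of Itgam are unique, so its absence is uncertain. Emcn, an endothelial sialomucin, stood at 5.92 and 7.13 RPKM with Kdr, Tek, Erg and Cldn5 at 0 counts. Des was the only expressed skeletal muscle marker of 8, Sox9 and Runx2 were expressed of 8 chondrocyte and osteoblast markers, and Afp was the only hepatocyte marker of 6, at 1.76 and 1.04 RPKM.

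**Figure D3:**
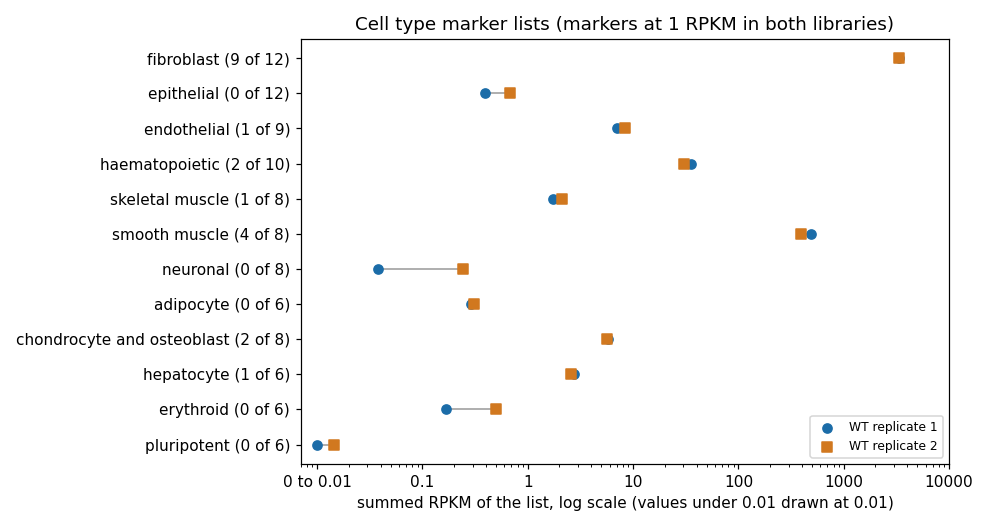
Summed RPKM of each cell type marker list on a log axis, with the number of its markers expressed in both libraries in brackets; circles are WT replicate 1 and squares WT replicate 2, and sums under 0.01 are drawn at 0.01. The fibroblast list lies above 3000 RPKM in both libraries, the smooth muscle list follows at 487 and 392 RPKM, and the epithelial list lies below 1 RPKM.

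Paralogue choice was read in 112 families with 630 genes. Of these genes 309 (49.0%) were expressed and 172 (27.3%) were at 0 counts, beside 41.2% and 38.4% of all protein-coding genes. In 105 families the highest member was expressed, and in 95 of them its lower value lay above the higher value of the runner-up. In the other 10 families the ranges of the first and the next member overlapped, so no leader is named without that limit. In 28 families the leader held more than 90% of the family's summed RPKM in both libraries, and 22 families had a single expressed member. Merged exons lower the RPKM of a gene with many annotated isoforms: dividing by the longest transcript instead raised 17 of the 105 leaders more than 1.5-fold, up to 2.36-fold for Tcf7l2. The others were Col1a2, Bgn, Lamb1, Cdh2, Ppard, Tmsb4x, Vim, Myh9, Msn, Cdk4, Cdkn1a, Zeb1, Runx1, Irf3, S100a6 and Anxa2.

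Of 102 matrix members 45 were expressed (44.1%, beside 41.2% of all protein-coding genes) and 23 were at 0 counts (22.5%, beside 38.4%). Among fibrillar collagens, the rope-like chains of connective tissue, Col1a2 led at 98.8 and 163 RPKM and was higher in replicate 2. The next chains were Col3a1 at 43.7 and 86.02 RPKM, Col1a1, the partner of Col1a2 in type I collagen, at 41.6 and 54.7 RPKM, and Col5a2 at 36.7 and 56.8 RPKM; their ranges overlapped with one another. Col6a1, a chain of the beaded microfibrils around cells, stood at 119 and 147 RPKM, above Col6a2 at 36.6 and 42.1 RPKM and Col6a3 at 20.4 and 25.6 RPKM, and Col6a4, Col6a5 and Col6a6 were at 0 counts. Of the basement membrane collagen IV chains, Col4a1 and Col4a2 led at 39.95 and 52.3 RPKM and 36.1 and 37.9 RPKM, with Col4a3 and Col4a4 at 0 counts.

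Laminins are trimers of an alpha, a beta and a gamma chain, and the line transcribed beta and gamma chains with little of any alpha chain. Lamb1 stood at 34.3 and 44.7 RPKM and Lamc1 at 14.8 and 21.1 RPKM. On merged exons no alpha chain reached 1 RPKM in both libraries. Lama4 stood at 0.920 and 1.94 RPKM and Lama2 at 0.395 and 0.979 RPKM, with overlapping ranges, and Lama1 was at 0 counts. The longest Lama4 transcript has 6046 bases against 12068 bases of merged exon, so whether Lama4 counts as expressed depends on the length used. Both Lama4 and Lama2 were more than 2-fold higher in replicate 2. The small leucine-rich proteoglycans, which coat collagen fibrils, were reduced to 1 expressed gene. Bgn, biglycan, stood at 332 and 379 RPKM and held 99.7% and 99.4% of the family, with Lum, Prelp and Kera at 0 counts.

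Elastic fibre genes were led by Fbln2, a fibulin, at 162 and 180.4 RPKM, followed by Efemp1 at 94.7 and 153 RPKM and Efemp2 at 95.9 and 94.00 RPKM. Eln, the elastin these proteins surround, was at 0 and 0.0217 RPKM, and Fbn2, Fbln1 and Mfap2 were at 0 counts. Loxl1 led the lysyl oxidases, which crosslink collagen and elastin, at 117 and 118 RPKM, with Lox at 31.99 and 51.4 RPKM and Loxl2 at 0 counts. Tnc, a tenascin of embryonic and injured tissue, was the only expressed tenascin at 59.5 and 62.7 RPKM. Thbs1 led the thrombospondins at 53.6 and 60.7 RPKM. Ccn2 and Ccn1, secreted matrix-associated proteins induced by serum, stood at 306 and 243 RPKM and 153 and 110.4 RPKM. Ccn3 and Ccn6 (68.2% of stretches unique) were at 0 counts.

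Matrix turnover genes had Mmp2, a gelatinase, at the head of 17 metalloproteases with 111 and 107 RPKM. Its membrane-bound activator Mmp14 stood at 4.85 and 7.09 RPKM, and Mmp3, Mmp7, Mmp8, Mmp10 and Mmp12 were at 0 counts. The inhibitors Timp2 and Timp1 were at 149.5 and 139 RPKM and 129 and 108 RPKM, above Timp3 at 3.71 and 6.87 RPKM. Vcan, versican, was the only expressed hyalectan at 3.18 and 4.73 RPKM, and Has2 the only expressed hyaluronan synthase at 2.01 and 2.12 RPKM.

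**Figure D4:**
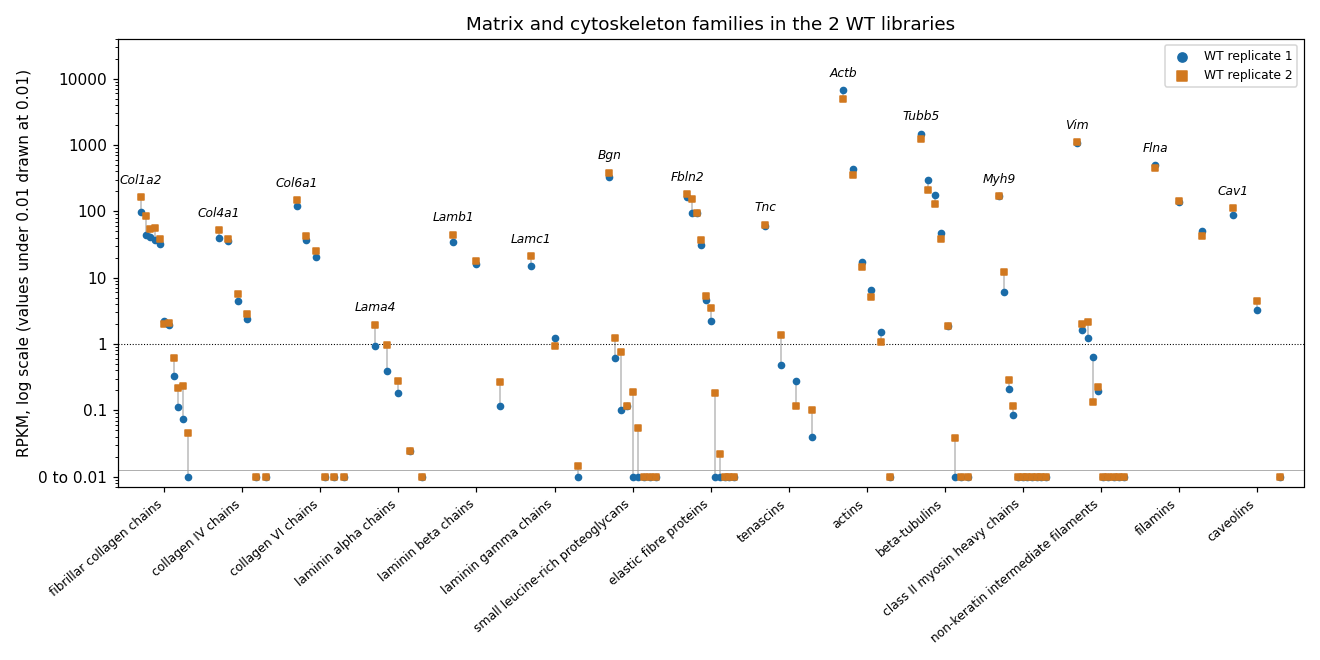
RPKM (log axis) of each member of 15 matrix and cytoskeleton families, ordered within a family from the highest to the lowest mean; circles are WT replicate 1, squares WT replicate 2, grey lines join the libraries, the dotted line is 1 RPKM, and values under 0.01 are drawn at 0.01. The leader of each family is named: Bgn, Tnc, Myh9 and Vim stand far above their paralogues, while the laminin alpha chain Lama4 lies on both sides of 1 RPKM.

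Of 115 cytoskeleton members 59 were expressed (51.3%, beside 41.2% of all protein-coding genes) and 37 were at 0 counts (32.2%, beside 38.4%). Myh9, a non-muscle myosin heavy chain that pulls on stress fibres, stood at 170.1 and 169.9 RPKM and Myh10 at 6.17 and 12.3 RPKM, whereas Myh11, Myh1, Myh2, Myh4, Myh6, Myh7 and Myh8 of smooth, skeletal and heart muscle were at 0 counts. The promoters of Myh9 (chr15:77842126-77842425, minus strand) and Myh4 (chr11:67237562-67237861, plus strand) are shown as a paralogue pair that follows the pattern of CpG by level, with 19 and 1 CG in capitals.
Myh9: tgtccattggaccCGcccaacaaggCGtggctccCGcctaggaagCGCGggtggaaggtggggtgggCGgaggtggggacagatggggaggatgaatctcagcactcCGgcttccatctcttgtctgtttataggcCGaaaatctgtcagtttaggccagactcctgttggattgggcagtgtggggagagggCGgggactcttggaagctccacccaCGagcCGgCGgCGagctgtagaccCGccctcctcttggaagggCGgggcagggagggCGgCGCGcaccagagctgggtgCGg
Myh4: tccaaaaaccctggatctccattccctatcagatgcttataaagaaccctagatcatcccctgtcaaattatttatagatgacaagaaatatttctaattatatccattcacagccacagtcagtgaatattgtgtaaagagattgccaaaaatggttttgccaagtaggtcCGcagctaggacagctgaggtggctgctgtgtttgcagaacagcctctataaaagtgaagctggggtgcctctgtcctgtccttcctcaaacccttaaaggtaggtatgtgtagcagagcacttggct

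Among actins, Actb held 93.4% and 93.0% of the summed RPKM of 6 genes as counted. This share depends on the uncertain level of Actg1 given below. Acta2 followed at 442 and 357 RPKM, Actg2, the enteric smooth muscle actin, at 17.1 and 14.5 RPKM, and Actc1 of heart muscle was at 0 counts. Actg1, cytoplasmic gamma-actin, was counted at 6.61 and 5.09 RPKM. This value is uncertain, because only 62.6% of the 50-base stretches of its transcripts occur in no other gene and reads with several hits were not counted. Copies outside annotated transcripts were not searched, and how far the Actg1 level was lowered was not tested. The counts therefore do not show that gamma-actin is nearly absent. Several actin promoters are known to carry a CArG box, the site of serum response factor, which reads CC, then 6 letters that are each A or T, then GG, and so has the same form on both strands. It was found in 1.55% of all windows: in 1.92% of those of genes at 0 counts, 1.39% below 1 RPKM, 1.11% between 1 and 10, 1.51% between 10 and 100 and 2.35% at 100 RPKM or more, with no steady order by level. The windows of Actb and Actg2 were not analysed here. The windows of the other actins that hold a box are shown with it in capitals: Actg1 (chr11:120348446-120348745, minus strand), Acta1 of skeletal muscle (chr8:123894726-123895025, minus strand) and Actc1 (chr2:114052826-114053125, minus strand), in which it begins 90, 73 and 47 bases before the start. The box was thus present in the window of a gene at 0 counts as well, and Acta1 stood at 1.51 and 1.09 RPKM. The Acta2 window holds none, and no match says only that these letters are absent from this window.
Actg1: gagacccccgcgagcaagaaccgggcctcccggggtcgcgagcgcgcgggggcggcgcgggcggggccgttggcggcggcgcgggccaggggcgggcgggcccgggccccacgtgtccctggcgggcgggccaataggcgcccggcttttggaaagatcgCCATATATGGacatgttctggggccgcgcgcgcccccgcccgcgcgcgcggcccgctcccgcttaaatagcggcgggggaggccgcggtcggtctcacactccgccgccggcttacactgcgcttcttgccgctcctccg
Acta1: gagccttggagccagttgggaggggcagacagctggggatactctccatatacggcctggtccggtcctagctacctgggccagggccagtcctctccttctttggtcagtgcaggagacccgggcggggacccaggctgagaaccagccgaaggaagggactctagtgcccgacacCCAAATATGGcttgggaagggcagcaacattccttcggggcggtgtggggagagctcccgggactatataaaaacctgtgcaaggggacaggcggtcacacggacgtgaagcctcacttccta
Actc1: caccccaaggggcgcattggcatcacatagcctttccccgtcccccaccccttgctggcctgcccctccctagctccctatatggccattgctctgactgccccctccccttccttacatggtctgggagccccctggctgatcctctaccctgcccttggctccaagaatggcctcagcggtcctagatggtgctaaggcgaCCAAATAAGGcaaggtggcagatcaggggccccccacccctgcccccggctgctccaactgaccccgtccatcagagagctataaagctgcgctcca

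Microtubules drew on Tubb5, the highest beta-tubulin at 1481 and 1226 RPKM, then Tubb6 at 294 and 208 RPKM and Tubb4b (58.7% of stretches unique) at 175.7 and 129 RPKM; the neuronal Tubb3 and the platelet Tubb1 were at 0 counts. Tuba1a led the alpha-tubulins at 175.6 and 136 RPKM, but 24.5% of its 50-base stretches are unique, so the order of Tuba1a, Tuba1b and Tuba1c is uncertain. Vim held 99.7% and 99.6% of the non-keratin intermediate filament levels, with Gfap and the neurofilaments Nefl (68% of stretches unique), Nefm and Nefh at 0 counts. Nuclear lamins were led by Lmna at 322 and 281 RPKM, with Lmnb1 at 17.96 and 18.4 RPKM.

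Among actin regulators the widely expressed isoforms led. Flna led the filamins at 495 and 451 RPKM, Pfn1 the profilins, which feed actin monomers to growing ends, at 659.6 and 504 RPKM, Cfl1 the filament-severing cofilins at 283 and 253 RPKM, and Tmsb4x the monomer-binding thymosins at 518 and 499 RPKM. Tagln2 and Cnn2, the non-muscle transgelin and calponin, stood at 240.4 and 195 RPKM and 163 and 164 RPKM. Tpm4 was the highest tropomyosin at 114 and 137 RPKM, although Tpm1, at 76.96 and 79.9 RPKM, took its place when levels were divided by the longest transcript. Cav1, the coat protein of caveolae, stood at 89.5 and 112 RPKM, with the muscle paralogue Cav3 at 0 counts. Rhoc was the highest of the RhoA-group GTPases at 198 and 168 RPKM, above Rhob at 120.0 and 115 RPKM and Rhoa at 29.6 and 28.1 RPKM. Gja1, a gap junction channel protein, stood at 7.63 and 9.11 RPKM.

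Of 156 receptor members 64 were expressed (41.0%, beside 41.2% of all protein-coding genes) and 49 were at 0 counts (31.4%, beside 38.4%). The highest of the 156 was Axl, a receptor tyrosine kinase for the ligand Gas6 (TAM group), at 477 and 417 RPKM, or 97.5% and 97.4% of its group; Tyro3 stood at 12.3 and 11.1 RPKM. Epha2 was the only expressed member of 8 EphA receptors, which bind ephrins on neighbouring cells, at 33.97 and 28.4 RPKM, with the other 7 at 0 counts. Ephb4 led the EphB group at 30.4 and 29.8 RPKM. The promoters of Epha2 (chr4:141300971-141301270, plus strand) and its paralogue Epha7, at 0 counts, (chr4:28812881-28813180, plus strand) are shown since they run against the pattern of CpG by level: they hold 10 and 28 CG, in capitals.
Epha2: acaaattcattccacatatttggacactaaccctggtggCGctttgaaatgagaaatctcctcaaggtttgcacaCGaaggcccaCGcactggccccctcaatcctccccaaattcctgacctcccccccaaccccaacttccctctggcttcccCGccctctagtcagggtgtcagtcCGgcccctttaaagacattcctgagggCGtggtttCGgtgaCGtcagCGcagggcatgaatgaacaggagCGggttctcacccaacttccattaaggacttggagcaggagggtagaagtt
Epha7: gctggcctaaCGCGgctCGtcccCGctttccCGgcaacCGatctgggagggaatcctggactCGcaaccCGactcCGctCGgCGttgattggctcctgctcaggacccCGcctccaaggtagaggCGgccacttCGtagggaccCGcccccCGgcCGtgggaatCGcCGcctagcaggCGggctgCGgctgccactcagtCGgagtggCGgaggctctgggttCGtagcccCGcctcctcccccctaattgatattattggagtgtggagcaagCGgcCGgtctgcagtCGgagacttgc

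Growth factor receptors that NIH/3T3 cells are known to use in serum were present at modest levels. Pdgfrb and Pdgfra, the platelet-derived growth factor receptors, stood at 14.3 and 20.4 RPKM and 9.09 and 15.3 RPKM; both were higher in replicate 2, their ranges overlapped, and Pdgfra led with longest-transcript lengths. Egfr, the epidermal growth factor receptor, was at 0.0456 and 0.0233 RPKM, whereas its paralogue Erbb2 stood at 17.2 and 15.2 RPKM and Erbb4 at 0 counts. Among FGF receptors the decoy-like Fgfrl1 at 42.1 and 32.6 RPKM was above the signalling receptor Fgfr1 at 6.93 and 7.94 RPKM. Igf1r stood at 5.70 and 5.49 RPKM, Met, the receptor of hepatocyte growth factor, at 7.87 and 11.8 RPKM, and Ddr2, a collagen receptor kinase, at 8.70 and 12.7 RPKM.

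Among receptors for matrix and for neighbouring cells, Itga5, which pairs with Itgb1 to bind fibronectin, led 18 integrin alpha subunits at 26.01 and 27.5 RPKM, followed by Itga3 at 11.9 and 11.1 RPKM. Itgb5 and Itgb1 were the highest beta subunits at 88.1 and 94.3 RPKM and 49.03 and 88.6 RPKM, with overlapping ranges; the collagen-binding partners Itga1 and Itga2 were at 0 counts. Cdh2, N-cadherin, was the only expressed classical cadherin of 9 at 4.77 and 6.57 RPKM, and Cdh11 was at 0 counts. Gpc1 was the only expressed glypican at 36.6 and 32.8 RPKM. Gpc2 (50.3% of 50-base stretches unique), Gpc3, Gpc4, Gpc5 and Gpc6 were at 0 counts. All 4 syndecans were expressed, led by Sdc4 at 78.96 and 76.1 RPKM. Glypicans and syndecans both carry heparan sulfate chains that hold growth factors at the surface.

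Among signalling receptors, Notch2 held 97.8% and 95.03% of the Notch level at 16.02 and 18.7 RPKM. Fzd2 led the Frizzled receptors of Wnt ligands at 47.6 and 38.2 RPKM, and Tgfbr2 the type II receptors of the TGF-beta family at 15.6 and 17.6 RPKM. The type I receptors had no clear leader: Bmpr1a stood at 6.14 and 8.40 RPKM and Acvr1b at 6.49 and 7.20 RPKM, with the order of the replicates crossed. Receptors for serum lipids and thrombin included Lpar1 at 6.38 and 12.6 RPKM, S1pr3 at 19.1 and 19.1 RPKM and F2r at 14.1 and 19.4 RPKM, the last being the only expressed protease-activated receptor of 4. Nr3c1, the glucocorticoid receptor, stood at 3.09 and 3.58 RPKM, with the steroid receptors Pgr, Esr1 and Esr2 at 0 counts. Rarg led the retinoid receptors at 47.99 and 48.8 RPKM, and of the PPAR receptors Ppard stood at 2.61 and 2.05 RPKM while Pparg, the adipocyte regulator, was at 0 counts.

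Secreted and calcium-binding families had 34 of 63 members expressed (53.97%, beside 41.2% of all protein-coding genes) and held some of the highest levels of the cell. S100a6, S100a4 and S100a10 stood at 2540.3 and 2365 RPKM, 1986 and 1757 RPKM and 576 and 462 RPKM, whereas the neutrophil genes S100a8 and S100a9 were at 0 counts; 52.6% of the 50-base stretches of S100a4 are unique. Anxa2, an annexin that binds membranes with S100a10, led its family at 713 and 593 RPKM, with 9 of 12 annexins expressed. Lgals1 held 95.8% and 94.99% of the galectin levels, and Lgals3 stood at 263 and 253 RPKM. Among ligands, Tgfb3 at 25.8 and 32.7 RPKM was above Tgfb1 at 3.43 and 3.43 RPKM, and Fgf7, which acts on epithelia, led the FGFs tested at 8.66 and 11.6 RPKM. Igf1 was at 0 counts, while the insulin-like growth factor binding proteins Igfbp6 and Igfbp7 stood at 338 and 331 RPKM and 55.7 and 90.1 RPKM and Igfbp2, Igfbp3 and Igfbp5 at 0 counts. Pdgfc and Pdgfa overlapped at 7.61 and 11.3 RPKM and 6.37 and 8.48 RPKM, and so did Vegfa and Vegfb at 15.4 and 22.2 RPKM and 17.4 and 15.01 RPKM, with Vegfb the higher in replicate 1.

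Cell cycle families had the largest share expressed of the 6 groups of families, 25 of 35 members (71.4%, beside 41.2% of all protein-coding genes). Ccnd1, the D-type cyclin that growth factors induce to start a cycle, led its family at 52.1 and 58.8 RPKM, above Ccnd3 at 15.5 and 11.01 RPKM and Ccnd2 at 6.89 and 10.5 RPKM, and the ranges of the 3 D cyclins did not overlap. Its kinase partner Cdk4 stood at 346 and 289 RPKM and the alternative partner Cdk6 at 1.59 and 2.12 RPKM. Ccne1, which acts at entry into S phase, was at 33.2 and 24.6 RPKM and Ccne2 at 2.14 and 2.04 RPKM. Ccna2 was at 44.4 and 44.8 RPKM, with the germline cyclin Ccna1 at 0 counts. Ccnb2 at 18.7 and 19.5 RPKM was above Ccnb1 at 11.3 and 11.7 RPKM on merged exons, and Ccnb1 led with longest-transcript lengths.

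The inhibitors of these kinases were unevenly represented. Cdkn2a, which encodes Ink4a and Arf, and Cdkn2b, its neighbour on chromosome 4 (89274471 to 89294653 and 89306299 to 89311039), had 0 counts in both libraries; NIH/3T3 is known to lack this locus. On either side of it, Mtap, an enzyme of methionine salvage that starts 137 kb before the Cdkn2a start, had 592 and 2728 counts (47.4 and 74.3 RPKM), and Dmrta1, which starts 405 kb after, had 0 counts. Counts alone do not show where a deletion would end, since a gene that is not transcribed gives 0 as well. The remaining INK4 genes Cdkn2c and Cdkn2d stood at 32.5 and 32.5 RPKM and 19.03 and 15.2 RPKM. Cdkn1a, a target of p53, was at 24.7 and 26.00 RPKM and Trp53, p53 itself, at 51.9 and 45.9 RPKM, with its paralogues Trp63 and Trp73 at 0 counts. Rbl1 led the pocket proteins, which hold back E2F factors, at 2.20 and 2.71 RPKM. Rbl2 stood at 0.956 and 2.00 RPKM and Rb1 at 0.472 and 0.760 RPKM. E2f4 and E2f1 led the E2F factors at 35.8 and 33.9 RPKM and 24.1 and 16.5 RPKM.

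**Figure D5:**
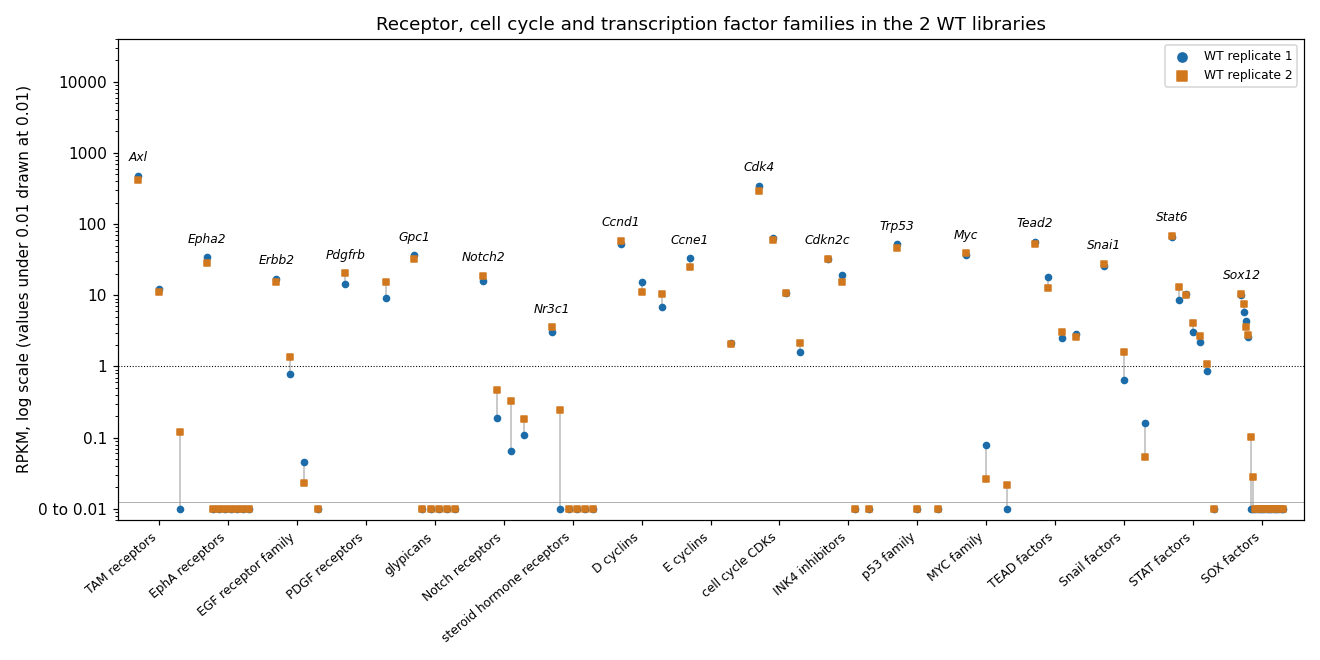
RPKM (log axis) of each member of 17 receptor, cell cycle and transcription factor families, ordered within a family from the highest to the lowest mean; circles are WT replicate 1, squares WT replicate 2, grey lines join the libraries, the dotted line is 1 RPKM, and values under 0.01 are drawn at 0.01. Axl, Epha2, Gpc1 and Myc stand alone above 1 RPKM or far above their paralogues, and the INK4 family has Cdkn2a and Cdkn2b at 0.

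Transcription factor families had 82 of 159 members expressed (51.6%, beside 41.2% of all protein-coding genes) and 41 at 0 counts. Myc, the growth regulator, held 99.8% and 99.9% of its family's level at 37.3 and 38.7 RPKM. The AP-1 factors were all expressed on the JUN side, with Jund at 59.6 and 57.5 RPKM, Jun at 36.4 and 36.9 RPKM and Junb at 34.00 and 34.95 RPKM. Jund is uncertain, since Junb led in counts that ignore strand and only 51.7% of the 50-base stretches of Jund are unique over both strands. A gene that overlaps on the opposite strand lowers that share too. Fosl1 and Fosl2 overlapped at 47.1 and 31.3 RPKM and 30.97 and 36.3 RPKM, with Fosl2 the higher in replicate 2 and with longest-transcript lengths, while the serum-induced Fos was at 1.21 and 1.53 RPKM; 47.4% of the stretches of Fosl1 are unique. Egr1, another early response factor, stood at 12.8 and 16.7 RPKM.

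Factors of the Hippo and actin-linked pathways included Tead2 at 56.2 and 51.99 RPKM, the highest of the TEAD factors, with the coactivators Wwtr1 and Yap1 at 11.6 and 12.7 RPKM and 7.45 and 10.3 RPKM; Yap1 led with longest-transcript lengths. Mrtfa and Mrtfb, actin-sensing coactivators of serum response factor, stood at 12.9 and 10.7 RPKM and 4.71 and 6.52 RPKM, and Myocd, their smooth muscle relative, was at 0 counts. Of the SMAD proteins, which relay TGF-beta and BMP signals, all 8 were expressed, and Smad4 and Smad3 overlapped at 19.8 and 24.3 RPKM and 19.7 and 21.2 RPKM. Id3 and Id1, targets of BMP signalling, were the highest factors of the set at 211 and 240.1 RPKM and 114 and 142 RPKM.

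Among factors known from mesenchymal cells, Snai1 stood at 25.96 and 27.5 RPKM and Snai2 at 0.639 and 1.61 RPKM. Twist2 was at 29.8 and 24.95 RPKM and Twist1 at 18.9 and 21.9 RPKM; Twist1 led in counts that ignore strand, and 54.3% of the 50-base stretches of Twist2 are unique. Zeb1 was at 2.82 and 4.17 RPKM, Prrx2 at 17.8 and 14.6 RPKM and Prrx1 at 4.06 and 5.91 RPKM. Runx1 and Runx2 overlapped at 1.95 and 1.73 RPKM and 1.26 and 1.75 RPKM. Stat6 led the STAT factors at 66.9 and 68.6 RPKM, Irf3 the interferon regulatory factors at 23.2 and 24.8 RPKM, Nfix the NFI factors at 13.4 and 15.2 RPKM and Hmga1, a chromatin protein of proliferating cells, the HMGA pair at 73.7 and 54.4 RPKM. Hmga1 is uncertain, with 45.04% of its stretches unique.

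Of all 159 factors 25.8% were at 0 counts, beside 38.4% of all protein-coding genes, and the share differed between families. Myod1, Myf5, Myf6 and Myog of skeletal muscle and Pou5f1, Sox2 and Nanog of pluripotent cells had none. Of 19 SOX factors 4 were expressed, led by Sox12 at 9.97 and 10.4 RPKM and Sox4 (45.9% of stretches unique) at 5.76 and 7.66 RPKM, and 12 were at 0 counts. Of 6 GATA factors 3 were at 0 counts. Gata4, a regulator of heart and gut mesoderm, stood at 5.49 and 5.56 RPKM while Gata1, Gata5 and Gata6 had none. Of 9 PAX factors 6 were at 0 counts, and Pax9 was expressed at 1.38 and 1.81 RPKM. Of 16 T-box factors 5 were expressed and 3 were at 0 counts. Tbx15 and Tbx18, T-box factors of limb and trunk mesenchyme, overlapped at 3.45 and 4.64 RPKM and 3.50 and 3.80 RPKM.

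HOX genes, whose combination records the body level a cell came from, were expressed in part. Of 39 HOX genes 11 were expressed, beside 41.2% of all protein-coding genes, and 16 (41.0%) were at 0 counts, beside 38.4%. Hoxd8 was the highest at 17.7 and 26.2 RPKM. In the HOXA cluster Hoxa7 was the highest at 4.76 and 6.94 RPKM. Hoxb9 led the HOXB cluster at 4.61 and 5.87 RPKM, beside Hoxb6. Hoxc6 was the only expressed HOXC gene at 1.61 and 1.93 RPKM, and Hoxd8 and Hoxd9 were the expressed HOXD genes.

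Several large families of specialised tissues were nearly all at 0 counts. The shares at 0 counts are set beside 38.4% of all protein-coding genes. Of 1135 olfactory receptor genes 1111 (97.9%) were at 0 counts and none was expressed. Of 321 vomeronasal receptor genes 311 (96.9%) were at 0 counts. All 22 major urinary protein genes, 56 of 57 keratin-associated protein genes (98.2%) and 41 of 49 keratin genes (83.7%) were at 0 counts. Below the 38.4% of all protein-coding genes lay 46 of 365 zinc finger genes named Zfp (12.6%) and 6 of 102 cytosolic ribosomal protein genes (5.88%). Xist, the RNA that coats the inactive X chromosome, and the Y-linked genes Ddx3y, Eif2s3y, Kdm5d and Uty were all at 0 counts, and 182 of 183 protein-coding genes of the Y chromosome had none.

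The WT libraries differed by more than counting noise, with a chi-square per degree of freedom of 12.5 over genes. Of 8178 protein-coding genes with a mean of at least 10 CPM, 52 (0.636%) differed at least 2-fold, and all 52 were higher in replicate 2. Among the 286 family members at that level 3 did so (Rbl2, Lama4 and Lama2), or 1.05%. The largest ratio was that of Gadd45a, a stress-induced growth arrest gene, at 4.91 and 17.9 CPM, a ratio of 3.66 (95% counting interval 2.28 to 6.20). Txnip, a glucose-responsive inhibitor of thioredoxin, Igsf10, Il13ra1 and Rnd3 followed, between 2.50 and 2.70. In the other direction ratios of replicate 1 to replicate 2 reached 1.87 for Hist1h4n and Inka1, and Dusp5, Kctd13 and Adm lay between 1.71 and 1.79. The median log2 ratio of replicate 2 to replicate 1 was −0.09 for genes whose longest transcript is at most 2715 bases, 0.06 up to 4363 bases and 0.22 above, so replicate 2 read higher for long genes; the part of transcript length in the differences above was not tested.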

How the data were processed

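The deposited values are unnormalised read counts for each Ensembl gene, as STAR writes them. Per the submitters' processing notes, reads were checked with FastQC and aligned with STAR 2.6.0c to GRCm38. The release of the annotation behind these counts is not given in the sources used. Column 4, the reverse strand, was used; same-strand reads made up 5.53% and 5.51% of the counts of both strands. Rows naming no gene (50.5% and 49.2% of reads, of which multimapping 30.3% and 30.1% of reads) were left out. A GENCODE M21 annotation matched 54079 of 54146 identifiers and gave symbols, positions and merged exon lengths. Reads with several hits are not counted, so genes with near-identical copies read low. The share of 50-base stretches of a gene's transcripts found in no other gene was computed over both strands. It therefore also falls where a gene on the opposite strand overlaps, and such an overlap does not give a read several hits.

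CPM, RPKM and summaries were computed in Python 3.11.15 (pandas 2.3.3), TMM factors with edgeR 4.0.16 in R 4.3.3. A single group of 2 libraries allows no test, so both values are given. The counting intervals were tested on simulated data that held counting noise alone. The libraries differed by more than that, so the simulation cannot show how well the intervals cover here. Promoter windows come from RefSeq (GRCm38.p6). The families, marker lists and the naming rule were chosen with earlier results of these data known. The rule names the 12 highest protein-coding genes by CPM and by RPKM, the 5 highest non-coding genes, leaders, runners-up and up to 4 members at 0 counts per family, the markers, and the 5 largest ratios in each direction between the libraries. Any further gene in the text was picked once its values had been seen. Not every family or member is described, and some results are not reported here.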

Additional observations from a re-analysis of the deposited data

How the results depend on the processing

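Without the mitochondrial genes the protein-coding share of counts, 80.9% on average, became 86.3%. With a mean of at least 3 CPM in place of 10, the genes that differed 2-fold between the libraries rose from 52 to 172. The detected protein-coding genes, 10946 as reported, numbered 11957 with a floor of 1 count and 9930 with 10, and 11119 in replicate 2 at the depth of replicate 1. From 1 library they numbered 10986 to 11927, and those at 0 counts 8663 to 9707. Genes at 1 RPKM numbered 9908 at 0.5 RPKM and 7763 at 2 RPKM.

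Of the 105 family leaders, 103 were the same genes in counts that ignore strand, 98 with longest-transcript lengths, 105 with TMM scaling and 102 to 103 from 1 library. In counts that ignore strand 2 leaders moved more than 1.5-fold, Jund to 24.9 RPKM (0.425 times) and Twist2 to 14.9 RPKM. Leaving out families whose leader is under 1 RPKM is the reported definition, so this alternative added no value. No paired analysis was possible because no result comes from a test between groups. The shallower library limits what can be called absent: a gene at 0 counts in both may be transcribed at up to 0.197 CPM. That limit covers counting error only. Reads with several hits were not counted, so a gene with few unique stretches may lie above it. Order among paralogues within the spread of the libraries is not settled with 2 libraries.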

Other observations

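Some genes best known from other tissues stood well above 1 RPKM in both libraries, and were singled out after their values were seen. Defb41, a beta-defensin (ENSMUSG00000067773, chromosome 1, 18250980 to 18265138 in GRCm38), had 325 and 992 counts, or 138 and 143 RPKM. Of 42 beta-defensin genes 39 (92.9%) were at 0 counts, beside 38.4% of all protein-coding genes. Beta-defensins are short antimicrobial peptides, best known from epithelia. Its neighbour Defb18, 1 of only 2 expressed beta-defensins, had 1 and 4 counts. Cyp2c55, a cytochrome P450 of xenobiotic metabolism on chromosome 19, had 145 and 750 counts and stood at 18.8 and 33.04 RPKM, higher in replicate 2. Of 48 genes of P450 family 2, 38 (79.2%, beside the same 38.4%) were at 0 counts and 4 were expressed. Itgb7, a leukocyte integrin subunit, stood at 11.9 and 9.71 RPKM in a family with 4 of 8 members expressed. Its partner Itga4 was at 0 counts. Its other partner Itgae was at 0.733 and 1.21 RPKM.

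On chromosome 17, the lincRNA genes Gm26917 and Gm42418 lie beside CT010467.1, an annotated ribosomal RNA gene on the opposite strand that overlaps Gm42418. Gm26917 was at 39593 and 26634 CPM and Gm42418 at 6144 and 3701 CPM, both higher in replicate 1. CT010467.1 was at 111 and 2219.9 CPM, higher in replicate 2 by a ratio of 19.996 (95% counting interval 18.2 to 22.0). The block took 4.58% and 3.26% of all gene counts, and whether it reports residual ribosomal RNA was not tested.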
